A study of Mus musculus with 142 samples.

Results

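ΔCOSN123 is an allele of mouse embryonic stem cells (mESCs) from which 3 short sites near the Dppa2 and Dppa4 genes on chromosome 16 were removed. The line is clone A10 of F121-9, a hybrid of strain-129 (Mus musculus) and castaneus (CAST) mice, and the deletions lie on its strain-129 homolog, called musculus here, while its CAST homolog is unmodified at this locus. It was chosen by its genotype label and comprises 4 separate cultures of this clone, that is, 8 of the 142 samples of the series, early and late S-phase fractions counted separately. All cells of the series were grown in 2i + LIF and labelled with BrdU, and the DNA of early (E) and late (L) S phase was sequenced. Replication timing (RT) is the log2(E/L) ratio in windows of 50 kb, so that values above 0 are early and values below 0 late.

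ΔCOSN123 was set against 3 kinds of alleles. The control of the same culture was the unmodified CAST allele. A control of the same strain came from 3 libraries of 2 other clones, CTSS clone C4 and CR11.8k clone 50, whose musculus allele is unmodified and whose CAST allele carries the deletion. The library of CR11.8k clone 50 had repeat runs, which were averaged into 1 profile. The related deletions were ΔCOSN1 (1 site, 2 clones) and ΔCOSN12 (2 sites, 3 clones), both this line and ΔCOSN123 having been made from ΔCOSN1 cells, and ΔCR13.4k and ΔCR14.6k (2 clones each), single longer deletions that take all 3 sites with the DNA between them. ΔCL20k (2 clones) removed the left part of the same element and left the sites in place. Since ΔCOSN123 is 1 clone, an effect of the deletions and one of the clone cannot be told apart. Within cultures, p-values measure the spread between its cultures. Those against other lines also draw on the spread between libraries of other lines. None measures the spread between clones of ΔCOSN123. The files hold ratios and no reads or expression, so neither the deletions nor the cell type could be checked from them, and the depth behind each ratio is unknown.

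DNA replicates in large domains that follow a reproducible order through S phase, and domains with active enhancers tend to be early. Early replication control elements (ERCEs) are enhancer-like stretches that together keep the domain they lie in early. By the paper they are partly redundant, and loss of ERCE A alone did not delay this domain. ERCE C, in the 3′ part of Morc1, holds the sites COSN3, COSN2 and COSN1, which are bound by OCT4, SOX2 and NANOG, the core transcription factors of pluripotency. Dppa2 and Dppa4 encode chromatin proteins that mESCs use to switch on genes of the early embryo, and Morc1 encodes a protein that silences transposons in male germ cells.

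The guides that cut out each site are shown because they fix how little DNA was taken. Each matched chromosome 16 of mm10 once, and the PAM is in capitals.
C-OSN-3-G1, + strand, chr16:48606304-48606326: cagcctgttgaattgacagaAGG
C-OSN-3-G2, + strand, chr16:48607147-48607169: tctcttccctgtgccgtaagTGG
C-OSN-2-G1, + strand, chr16:48608199-48608221: agagtttgtagaatgctccgGGG
C-OSN-2-G2, - strand, chr16:48608749-48608771: acaagcatggtagggcctaaAGG
C-OSN-1-G1, - strand, chr16:48613166-48613188: gagtaactcaggcaaaacgtTGG
C-OSN-1-G2, - strand, chr16:48614737-48614759: ggaccggccaacctcccttaAGG

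With the cut placed 3 bases before each PAM, COSN3 spanned chr16:48606321-48607163 (843 bp), COSN2 chr16:48608216-48608754 (539 bp) and COSN1 chr16:48613172-48614742 (1571 bp). COSN3 and COSN2 lie in intron 20 and COSN1 in intron 21 of the 27-exon transcript of Morc1, and none of the 3 overlaps an annotated exon. The deletions removed 2953 bases within 8.42 kb, all inside the window at 48.60 to 48.65 Mb, of which they are 5.91%. Their GC content lay between 42.5% and 43.3%.

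A stretch of each site is printed from the reference genome, which is C57BL/6J and not the strain-129 allele that was cut. Capitals mark CATTGT, a SOX core, read on either strand.
COSN3, + strand, chr16:48606667-48606816: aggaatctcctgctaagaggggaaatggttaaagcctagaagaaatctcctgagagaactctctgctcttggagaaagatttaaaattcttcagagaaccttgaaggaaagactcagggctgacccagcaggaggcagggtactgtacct
COSN2, + strand, chr16:48608628-48608754: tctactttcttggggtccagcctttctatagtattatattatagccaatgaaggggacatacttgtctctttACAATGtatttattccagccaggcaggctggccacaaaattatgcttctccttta
COSN1, + strand, chr16:48613760-48613909: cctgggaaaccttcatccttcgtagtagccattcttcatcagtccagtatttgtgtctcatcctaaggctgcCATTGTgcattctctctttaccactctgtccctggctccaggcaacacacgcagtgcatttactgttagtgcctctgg

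CATTGT occurred 2 times in COSN1, 1 time in COSN2 and 0 times in COSN3. Among chromosome 16 stretches of the same lengths, 67.0%, 31.4% and 44.6% held it. The octamer ATGCAAAT, which OCT4 binds, occurred in none of the 3 sites, against 8115 of the 60476 stretches of the length of COSN1, and 4.83% and 7.44% of those of the length of COSN2 and COSN3. These are letter matches only.

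On the deleted allele the early domain was lower and shorter than on either control. The largest delay did not lie over the deleted sites but to their right, in the window at 48.75 to 48.80 Mb, whose centre is 160 kb from the last deleted base of COSN1 and beyond the end of Morc1. It is the window in which Trat1 starts, a gene for an adaptor of the T cell receptor. There the RT of the deleted allele in cultures 1 to 4 was −0.32, −0.26, −0.52 and −0.35, and that of the CAST allele was 1.31, 0.48, 0.53 and 1.05. The deleted allele was late in every culture and the CAST allele early in every culture, with no overlap.

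The difference in this window was −1.63, −0.74, −1.06 and −1.40 in cultures 1 to 4, with a mean of −1.21 ± 0.39 (SD, n = 4; limma adjusted p = 3.09e-05). The SD over the cultures was 0.40 for the RT of the CAST allele and 0.11 for that of the deleted allele. Other lines had a CAST level of 0.69 ± 0.19 in this window (SD, n = 46 libraries). The 3 unmodified musculus alleles ranged from 0.51 to 0.63, and the deleted alleles lay 0.95 ± 0.11 (SE) below them (limma adjusted p = 0.00273). Against these the largest delay was −0.99 in the adjoining window, 48.70 to 48.75 Mb. In culture 2 alone the lowest difference was at 48.20 to 48.25 Mb, left of Dppa4, at −0.89, which is the same depth to 2 decimals as its value of −0.89 in the window at 48.80 Mb.

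**Figure D1:**
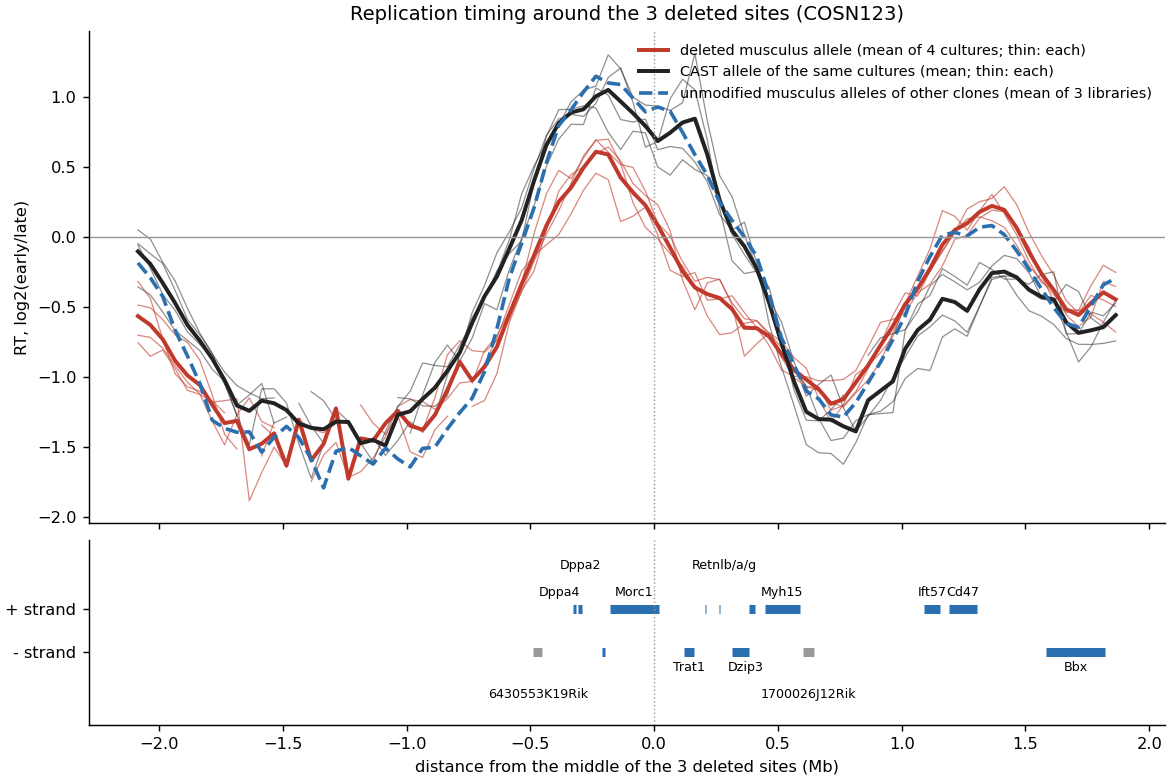
RT as log2(early/late) in 50 kb windows against the distance in Mb from the middle of the 3 deleted sites (dotted line), for the deleted musculus allele (red), the CAST allele of the same 4 cultures (black) and 3 unmodified musculus alleles (blue, dashed), over a map of genes in which blue bars are protein-coding genes and grey bars lincRNAs. On the right the red curve crosses 0 at 36 kb and the black curve at 336 kb from the last deleted base of COSN1, and the red curve lies below both controls wherever these are above 0 between −0.5 and 0.3 Mb.

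In every culture the right border of the early domain moved by more than the left border. Taken as the place where RT crosses 0, the right border lay at 48.68, 48.63, 48.68 and 48.62 Mb on the deleted allele of cultures 1 to 4 and at 48.98, 48.93, 48.99 and 48.90 Mb on the CAST allele. The shift was −301 ± 11 kb (SD, n = 4). On the deleted allele the early domain thus ended 36 kb from the last deleted base of COSN1, against 336 kb on the CAST allele and 360 kb on the unmodified musculus allele. The profiles were smoothed and the windows are 50 kb, so distances below that size are not resolved. The left border lay at 48.17 ± 0.04 Mb on the deleted allele and at 48.05 ± 0.03 Mb on the CAST allele, a shift of 119 ± 33 kb.

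Against the unmodified musculus alleles the right border moved by −324 kb and the left border by 85 kb. The early domain was 0.483 ± 0.064 Mb wide on the deleted allele, 0.902 ± 0.041 Mb on the CAST allele and 0.892 ± 0.021 Mb on the unmodified musculus allele (SD, n = 4, 4 and 3). Its highest RT was 0.62 ± 0.11, 1.13 ± 0.16 and 1.17 ± 0.02 on these alleles. The exact two-sided permutation test of deleted against unmodified musculus alleles gave p = 0.0286 for the right border, the width and the highest RT, the smallest p it allows, and p = 0.0571 for the left border (0.0381 and 0.0571 adjusted over the 4 quantities). It counts cultures and libraries of the same clone as independent, so it does not measure the spread between clones. Within cultures the exact sign test cannot go below its value of p = 0.125 for each of the 4 quantities. The highest RT of the deleted allele lay in the windows centred at 48.375, 48.375, 48.425 and 48.425 Mb in cultures 1 to 4, right of Dppa2. That of the CAST allele lay at 48.775, 48.325, 48.375 and 48.475 Mb, so that in culture 1 alone it was right of the sites, and that of the unmodified musculus alleles at 48.375 or 48.475 Mb.

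**Figure D2:**
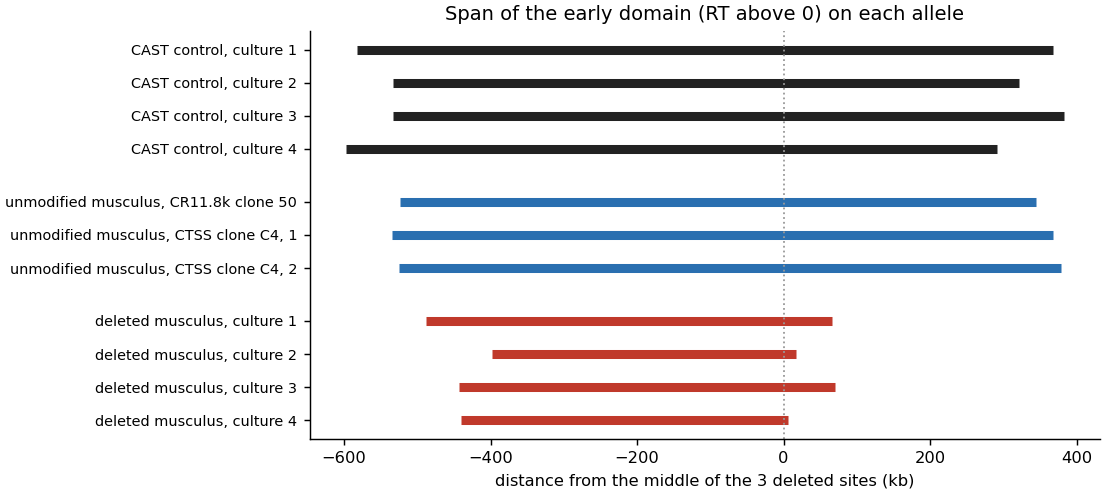
Span of the early domain, from the left to the right crossing of RT 0, in kb from the middle of the 3 deleted sites, with 1 bar per allele and library. The 4 deleted alleles (red) end on average 36 kb right of COSN1, and the 4 CAST alleles (black) and 3 unmodified musculus alleles (blue) end 336 and 360 kb right of it.

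The delay within cultures was broad. Of the 80 windows from 46.5 to 50.5 Mb, 62 had a value on both alleles of all cultures, and 32 of these were lower and 13 higher on the deleted allele (limma, adjusted p at or under 0.05). This count has to be read against the same call elsewhere, since 12.2% of all 36633 windows tested were lower and 11.3% higher on the musculus allele of these cultures, whose homologs come from 2 strains. The lower windows fell into 2 runs, 46.50 to 46.90 Mb and 47.85 to 49.05 Mb. The unbroken run of windows below 0 in all cultures was 1.25 Mb long, from 47.85 to 49.10 Mb. The windows at or under 50% of the largest delay numbered 5, from 48.65 to 48.90 Mb.

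The strain-matched comparison called the centre of this delay and no window of its left or right part. Against the unmodified musculus alleles, 5 region windows of 61 were lower, the unbroken run from 48.60 to 48.85 Mb, with differences from −0.99 to −0.85. Beside this run, windows that were not called had −0.67 to −0.66 from 48.45 to 48.60 Mb and −0.68 to −0.51 from 48.85 to 49.05 Mb. No other window was called in the 37168 windows tested across the autosomes (0.0135% lower, 0 higher). The call rests on the 2 control clones together. Without CR11.8k clone 50 no window was called, and without CTSS clone C4 none was, while the lowest difference was −0.98 and −1.03 and 24 and 19 region windows had an unadjusted limma p at or under 0.05.

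**Figure D3:**
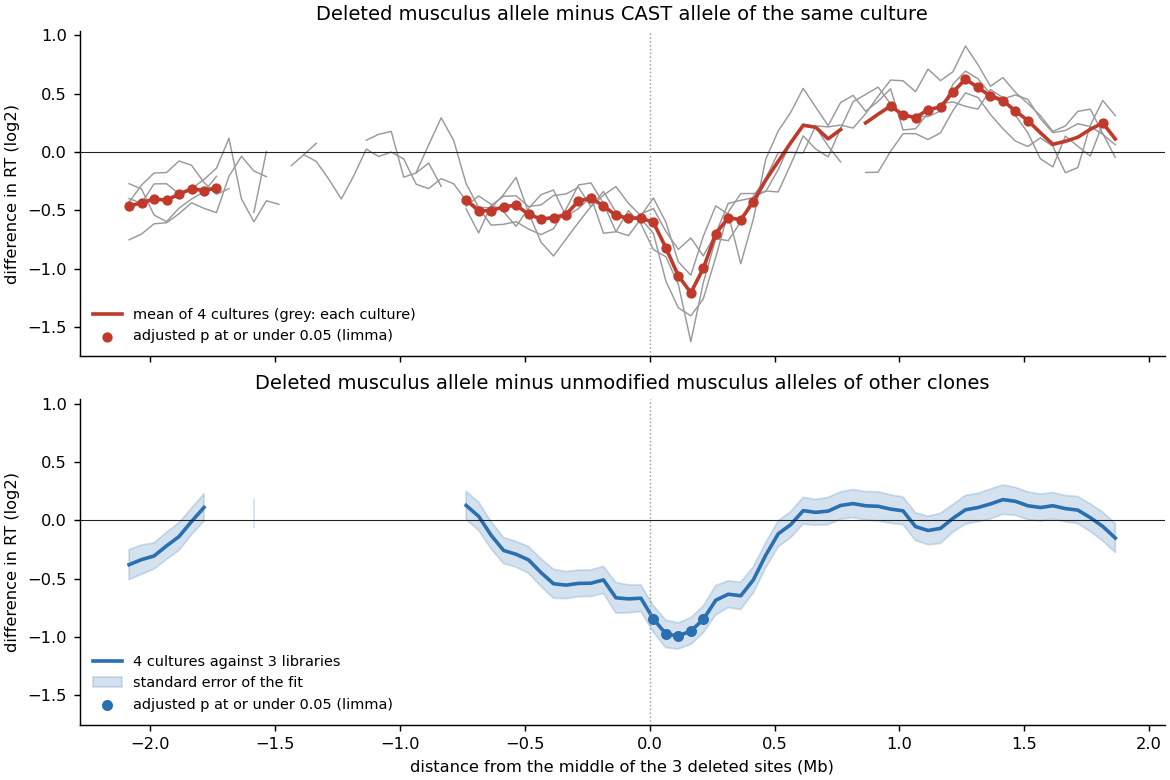
Difference in RT (log2) per 50 kb window against the distance in Mb from the middle of the 3 deleted sites, taken within each culture (upper; grey, each culture; red, mean) and against unmodified musculus alleles (lower; shaded, standard error), with dots for windows with a limma adjusted p at or under 0.05. The trough right of the sites is in both panels, and the dots of the left flank and of the right neighbouring domain are in the upper panel only.

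Segment by segment, the controls parted on the left. In the left flank, 47.5 to 48.2 Mb, the 7 of 14 windows with values on all alleles compared were those from 47.85 to 48.20 Mb, with the lincRNA 6430553K19Rik, and there the within-culture difference was −0.47, −0.46, −0.47 and −0.57 in cultures 1 to 4. The unmodified musculus alleles were themselves lower there than the CAST alleles of other lines, by −0.39, and the deleted alleles lay −0.19 from them. From 48.20 to 48.65 Mb, with Dppa4, Dppa2, Morc1 and the sites, the difference was −0.56, −0.58, −0.39 and −0.53 within cultures and −0.62 against unmodified musculus, where unmodified musculus and CAST alleles of other lines differed by −0.0048. From 48.65 to 49.20 Mb, with Trat1, the resistin-like genes, Dzip3 and Cip2a, it was −0.68, −0.53, −0.49 and −0.69 within cultures and −0.61 against unmodified musculus. In these 2 segments all 4 deleted alleles lay below all 3 unmodified musculus alleles, and the exact permutation test gave its smallest p of 0.0286 (0.1 adjusted over the 7 segments). Here too it counts cultures and libraries of the same clone as independent.

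The outer segments differed within cultures by amounts near those between the alleles of other genotypes. From 46.5 to 47.5 Mb, 8 of 20 windows had values on all alleles compared, those from 46.50 to 46.85 Mb and the one at 47.00 to 47.05 Mb. Their mean difference was −0.38 ± 0.12, and in 13 other genotypes whose label lacks COSN123 it was −0.37 ± 0.14 (SD over genotypes). In these genotypes it was always musculus minus CAST, whichever allele carried the deletion. The right neighbouring domain, 49.65 to 50.05 Mb, holds Ift57, a gene of intraflagellar transport, and Cd47, which encodes a surface signal that restrains phagocytosis. Its difference was 0.67, 0.48, 0.39 and 0.29, earlier on the deleted musculus allele in every culture. The exact sign test over cultures gave p = 0.125, the smallest it can give with 4 pairs. Against unmodified musculus alleles the difference was 0.04 ± 0.06, and after subtraction of the 14 other genotypes it was −0.01.

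Of the 14 protein-coding genes and 2 lincRNAs of the region, 11 began in windows that were lower on the deleted allele, 3 in windows that were higher and 2 in windows that passed no test, read against the shares of 12.2% and 11.3% above. Dppa4 began in a window with a difference of −0.55, −0.75, −0.36 and −0.49 in cultures 1 to 4, a mean of −0.54 ± 0.16 (limma adjusted p = 0.000698). In that of Dppa2 it was −0.48, −0.60, −0.30 and −0.28, a mean of −0.42 ± 0.15 (limma adjusted p = 0.00342). Both starts, at −323 and −302 kb from the sites, remained early on the deleted allele, with a mean RT of 0.35 and 0.49. The deleted and CAST values did not overlap at either gene.

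The start of Morc1, which shares its window with Gm5485, had a difference of −0.46 ± 0.16 (limma adjusted p = 0.00197) and a mean RT of 0.59 on the deleted allele. Right of the sites the starts went from early to late. Trat1, 157 kb away, is described above. Retnlb and Retnla, which encode secreted resistin-like proteins, began in the window at 48.80 Mb, where the deleted alleles had an RT of −0.29, −0.45, −0.33 and −0.56 and the CAST alleles 0.83, 0.44, 0.39 and 0.69. Their difference was −1.0 ± 0.24 (limma adjusted p = 2.24e-05). Retnlg, in the next window, changed from 0.26 to −0.44, a difference of −0.70 ± 0.18.

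Further right the controls were already near RT 0. Dzip3, a gene for an RNA-binding ubiquitin ligase, and Cip2a, which encodes an inhibitor of the phosphatase PP2A, begin 379 kb from the sites in 1 window, where the mean RT was −0.65 on the deleted and −0.07 on the CAST allele. At Myh15, a myosin heavy chain gene 443 kb away, the difference was −0.24 ± 0.13 (limma adjusted p = 0.0533). The lincRNA 1700026J12Rik was late on both alleles, with a mean RT of −1.09 and −1.30. Ift57, Cd47 and Bbx, which encodes an HMG-box protein, began in windows that were higher, by 0.30 ± 0.16, 0.51 ± 0.15 and 0.25 ± 0.13. Against unmodified musculus alleles, only the windows of Trat1, Retnlb and Retnla passed the test among those of the 16 genes, and those of Ift57, Cd47 and Bbx had differences of −0.05, 0.02 and −0.05.

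In the window at 48.75 Mb the musculus alleles of ΔCOSN1, ΔCOSN12 and ΔCOSN123 lay in the order of how many sites they had lost. The window was chosen as that of the largest delay of ΔCOSN123 within cultures. The deleted allele had an RT of 0.67 and 0.47 in the 2 clones of ΔCOSN1, of 0.21, 0.24 and 0.12 in the 3 clones of ΔCOSN12, and of −0.52 to −0.26 in ΔCOSN123. The ΔCOSN1 values bracket those of the unmodified musculus alleles, and the 3 genotypes do not overlap with each other. With a further deletion beside those of ΔCOSN12 the separation did not always hold. ΔAOSN.COSN12, which keeps COSN3, had −0.28 to 0.07 and so reached the range of ΔCOSN123, while ΔA.COSN12 had 0.12 to 0.22 (2 clones each). ΔCOSN1 was not tested against the others here. A further line labelled COSN1.2.8k, of which only 1 library had values on both alleles in this window, had an RT of 0.20 on the deleted allele. This is within the range of ΔCOSN12. If that line lost only COSN1, as its label reads, it breaks the order. ΔCR13.4k had −0.08 and 0.29, ΔCR14.6k had 0.12 and 0.13, and ΔCL20k had 0.42 and 0.53. All 4 alleles of both long deletions lay above the 4 cultures of ΔCOSN123, although they lack the same sites. By its area measure over the domain, the paper found no significant difference in delay among ΔCR13.4k, ΔCR14.6k and ΔCOSN123. Its proposal that not every combination of lost sites acts alike refers to ΔCOSN12 and ΔCR11.8k, which lost different sites.

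**Figure D4:**
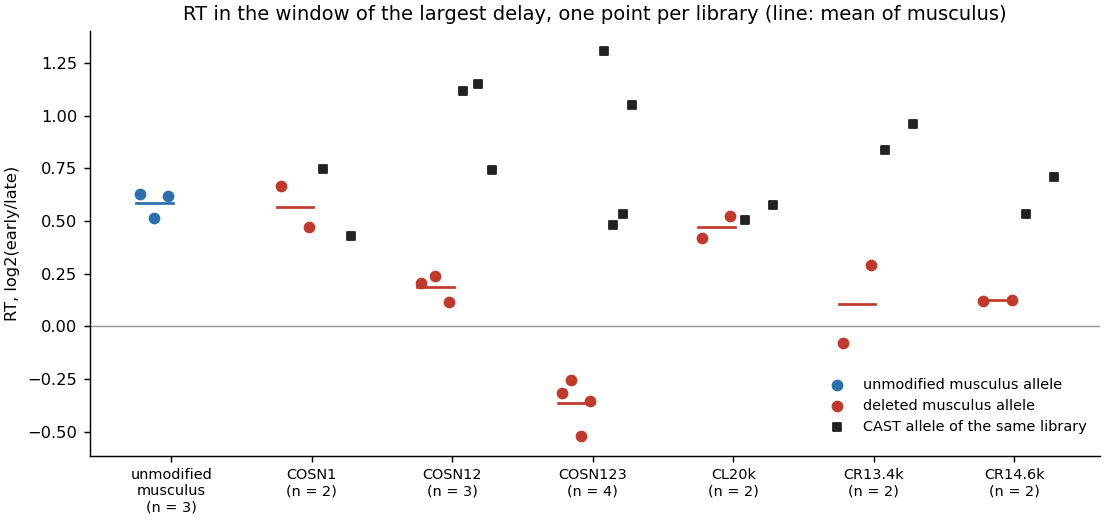
RT as log2(early/late) in the window at 48.75 to 48.80 Mb, 1 point per library, for unmodified musculus alleles (blue), deleted musculus alleles (red, with their mean as a line) and the CAST allele of the same library (black squares). The 4 red points of COSN123 are below 0, and the red points of COSN12 and CR14.6k are between 0.12 and 0.24.

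How far ΔCOSN123 lay below ΔCOSN12 depended on the measure. With 1 clone of ΔCOSN123, an effect of the third site cannot be told apart from one of the clone. By the difference between alleles, 1 of 62 region windows was lower in ΔCOSN123 than in ΔCOSN12 (limma with clone as a random block; 0.292% of all windows lower, 0.224% higher), and that was the first, at 46.50 Mb. It was not called without culture 1, without culture 3 or with the mean profile of each clone as 1 sample, where the count was 0. By the RT of the musculus allele alone, 17 of 64 were lower (0.829% of all windows lower, 1.04% higher), 10 of them in the run from 48.50 to 49.00 Mb. For this measure clone means were not tested. The mean difference on the musculus allele was −0.60 from 48.20 to 48.65 Mb and −0.44 from 48.65 to 49.20 Mb. In the Trat1 window it was −0.55 ± 0.14 (SE; adjusted p = 0.0239, limma), against −0.39 ± 0.17 (adjusted p = 0.309, limma) by the difference between alleles. There the CAST alleles of ΔCOSN12 were at 1.12, 1.15 and 0.74, within the range of those of ΔCOSN123.

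Against ΔCR13.4k and ΔCR14.6k together no region window was lower in ΔCOSN123 after adjustment (limma; 0.00293% of all windows lower, 0.0176% higher), and 11 of the 62 had an unadjusted limma p at or under 0.05 in either direction. In the Trat1 window the contrast was −0.56 ± 0.15 (SE; limma adjusted p = 0.569), and on the musculus allele alone −0.48 ± 0.13 (limma adjusted p = 0.0844). A further 11 lines, 31 libraries, carry other deletions on top of ΔCOSN123, and their mean difference in this window ranged from −1.60 to −0.71. Some were less delayed than ΔCOSN123 itself (−1.21) despite the added deletions. These were ΔA.BOSN1.COSN123 (−1.04), ΔBOSN1.COSN123 (−0.97), ΔA.COSN123 (−0.81), ΔAOSN.COSN123 (−0.76) and ΔZ.AOSN.COSN123 (−0.71). The remaining lines had −1.60 to −1.21. In some clones of ΔA.B.COSN123 and ΔAOSN.B.COSN123 the CAST allele is labelled B and not control. By the paper several of these lines were made from ΔCOSN123 cells, so they are not independent of it.

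The rank of the delay among all windows depended on the control. Within cultures, 56 windows elsewhere were as low as or lower than the −1.21 at 48.75 Mb, with a lowest value of −1.64. Against unmodified musculus alleles 1 window elsewhere was as low, on chromosome 2 at 181.95 to 182.00 Mb (−1.02 ± 0.27, SE; limma adjusted p = 0.485), where the unmodified alleles themselves ranged from 0.97 to 2.43. Elsewhere on chromosome 16, over 1292 windows, the lowest value was −0.53. The mean over the 25 windows of the delay was −0.59 within cultures, and 0.612% of 30714 overlapping stretches of 25 windows elsewhere were as low. Against unmodified musculus alleles it was −0.54, and none of 30871 such stretches was, the lowest being −0.42.

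**Figure D5:**
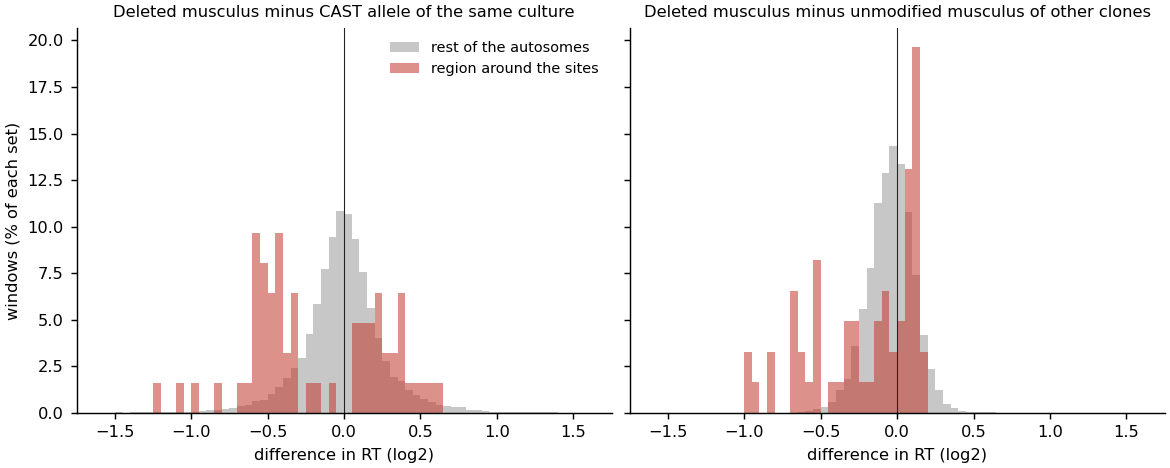
Distribution of the difference in RT (log2, x axis) over 50 kb windows as a percentage of each set (y axis), for the region around the sites (red) and the rest of the autosomes (grey), within cultures (left) and against unmodified musculus alleles (right). Elsewhere the spread narrows from an SD of 0.26 to 0.15 between the panels, and the red windows below −0.8 stand outside most of the grey in the right panel.

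Set against the 14 genotypes whose label lacks COSN123, 14 windows outside the region passed the test in ΔCOSN123, 3 lower and 11 higher (limma; over all windows 0.0165% lower and 0.0302% higher). In the region 3 were lower, from 48.70 to 48.85 Mb, with contrasts of −0.77 to −0.62, although ΔCR13.4k, ΔCR14.6k and ΔZ.B.C, which also lack the 3 sites, are among these genotypes. Their difference was always musculus minus CAST, but in ΔCR11.8k and CTSS clone C4 the deletion lies on the CAST allele. In ΔATSS.BTSS.CTSS and a clone of ΔBTSS.CTSS the CAST allele was modified too. The reference is therefore not purely deleted minus unmodified. The longest run elsewhere was 6 windows on chromosome 14 at 101.30 to 101.60 Mb, with Tbc1d4, a regulator of glucose transporter traffic, higher by up to 0.58 ± 0.08 (SE). The others were 2 windows at Cntnap2 on chromosome 6, higher by 0.48, and 1 window each at Gm2075, Uvrag and Col4a3. Lower were 2 windows at Scn3a, a sodium channel gene on chromosome 2, with a contrast of −0.59, and 1 at Mier3 on chromosome 13, with one of −0.39. None of the 14 was on chromosome 16. Against unmodified musculus alleles none of these windows was called (limma), and in the window of each run's largest contrast the difference was −0.08 at Tbc1d4, 0.09 at Cntnap2, 0.01 at Uvrag, 0.0012 at Col4a3, 0.91 at Gm2075, −0.29 at Scn3a and −0.07 at Mier3. The count of 14 became 0 with clone means and 0 against all other lines.

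The loci of 20 pluripotency genes were looked at as a group, since the factors that bind the sites are among them. A window was listed for 19, and 1 was lower (Tet1, −0.28, from −0.50 to −0.06 over the cultures) and 1 higher (Zfp42, 0.30, from 0.06 to 0.46) on the musculus allele, to be read against the shares of 12.2% and 11.3% of all windows. The median difference of the 19 was −0.0077, against −0.0037 over all windows, and against unmodified musculus alleles the median of the loci was −0.11, against −0.03 over all windows. Pou5f1, Sox2 and Nanog had differences of 0.12, −0.01 and −0.14, and none of the 17 loci tested against unmodified musculus alleles passed the limma test.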

How the data were processed

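E/L Repli-seq profiles of 4 cultures of ΔCOSN123 clone A10 were analysed with those of the other lines. The authors trimmed the reads, aligned them to N-masked mm10, assigned them to the musculus and CAST homologs, removed duplicates, counted reads in 50 kb windows and took log2(E/L). The deposited log2 values had been scaled, quantile-normalized and loess-smoothed, so neighbouring windows are not independent. The submitters' notes name Trim Galore, cutadapt and bedtools, whose versions are not given in the sources used here. Each allele of a culture had a value in 81.8% to 92.3% of the 49264 windows of the 19 autosomes, and the depth is unknown.

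Repeat runs of a library were averaged into 1 profile, among them those of 1 unmodified musculus library. Otherwise values were not transformed further. The deleted musculus minus the CAST value of each culture was tested against 0 with limma 3.58.1 (R 4.3.3) over all windows with values in the 4 cultures, and p-values were adjusted by Benjamini-Hochberg (threshold 0.05). The culture is thus a block, and the deviations of its 2 alleles from their means correlated with r = 0.50, 0.52, 0.33 and 0.32 over 36571 windows. Contrasts between lines came from a fit of musculus minus CAST over all libraries, with 1 coefficient per genotype and clone as a random block (consensus correlation 0.0708). The contrast with the 14 genotypes without COSN123 in their label used windows with at least 10 of them. The musculus allele alone was fitted in the same way, with its own correlation. The fits were tested on simulated data. Single values were tested with exact two-sided permutation tests. Borders are linear interpolations between window centres.

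Named genes are the protein-coding genes and lincRNAs of GENCODE vM21 that overlap the region, by the window of their start, the runs of called windows elsewhere (up to 5 in each direction) with up to 3 genes each, and 20 pluripotency loci. Segments, members and lists were chosen with earlier results of these data known. Guide sequences are those of the study and were matched to mm10, and motifs were searched on both strands. Alternatives covered the control allele, the block, centring, missing windows, the variance model, the threshold, the rule for the extent, the unit and each culture left out. Leaving out libraries from the unmodified musculus alleles was added after the data were seen. Profiles were read with pandas 2.3.3 and numpy 2.4.6 under Python 3.11.15, and plots drawn with matplotlib 3.10.9.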

Additional observations from a re-analysis of the deposited data

Results flagged for a closer look

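In culture 2 the lowest difference lay at 48.20 Mb, away from the other cultures, whose lowest difference was at 48.75 Mb in each. From 47.85 to 48.20 Mb, the measured part of the left flank, the difference of culture 4 was −0.57, apart from the others at −0.47 to −0.46. These were the 2 of 32 values with an outlying culture by Dixon's test, which flags about 1 in 20 by chance.

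Differences between genotypes passed the test in 1 region window for ΔCOSN123 against ΔCOSN12, in 3 region windows against the 14 genotypes without COSN123 in their label, and in 14 windows elsewhere against the same genotypes.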

How the results depend on the processing

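The count of 32 region windows lower within cultures was 28 to 33 under every alternative except the unmodified musculus alleles as control, where it was 5. Without the replicate block, that is, without the pairing of the alleles of a culture, it was 30, and leaving out each culture gave 28 to 31. The 5 windows were 3 to 5 when each culture was left out, 0 without CR11.8k clone 50 and 0 without CTSS clone C4. The largest delay lay between −1.36 and −0.99 and at 48.7 or 48.75 Mb in all alternatives run. The extent was 1.25 to 1.3 Mb when each culture was left out, 1.2 and 1.3 Mb with the other controls, and 0.25 Mb for windows at or under 50% of the largest delay. The right neighbouring domain differed by 0.39 to 0.52 when each culture was left out, by 0.041 against unmodified musculus alleles, and by −0.0094, in the other direction, once the difference in the genotypes without COSN123 was subtracted.

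The 14 windows elsewhere were 8 to 16 when each culture was left out (9 without culture 1 and 8 without culture 3), 0 with the mean profile of each clone as 1 sample and 0 against all other lines. The 1 window lower than in ΔCOSN12 became 0 with clone means, 2 after centring and 17 with the musculus allele alone, and was 0 to 1 when each culture was left out. The cause of these changes was not tested. The count against ΔCR13.4k and ΔCR14.6k was 0 throughout. Without reads, the precision of a single window is not known beyond the spread between cultures.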
